A study of Mus musculus with 18 samples.

Results

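The comparison is between splenic B cells of *Ubqln1*-/- mice stimulated for 4 hr with lipopolysaccharide (LPS) and the same kind of cells stimulated for 4 hr with an antibody to IgM. It holds 6 of the 18 libraries of the series, 3 with LPS and 3 with anti-IgM, chosen by the genotype and stimulation in their labels, and all genes of their raw count tables were used. The mice were C57BL/6 N, at least 8 weeks of age, and all of the 6 libraries carry the same germline deletion of exon 2 of *Ubqln1*, made by transient Cre expression in embryonic stem cells, so the deletion is present in every cell of the animal. LPS was of the K12 strain of *E. coli* at 20 μg/mL. Anti-IgM was a F(ab)2 fragment at 10 μg/mL, so the stimuli were each tested at one dose and one time. Wells stimulated in parallel were pooled before RNA was purified, and each library is one such pool. Used beside them were the 3 resting *Ubqln1*-/- libraries, cultured for the same 4 hr with no stimulus, and the WT libraries with LPS (3) and anti-IgM (3).

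LPS is bound by a receptor made of TLR4 and MD-2 (*Ly96*), and in B cells also by the related pair RP105 and MD-1, and it signals through the adaptors MyD88 and TRIF to NF-kB, to MAP kinases and to interferon regulatory factors. Anti-IgM crosslinks the B cell receptor (BCR), which signals through the kinases LYN and SYK to calcium, NFAT, RAS and ERK, and to NF-kB through PKC-beta. Both stimuli make resting B cells grow and raise MYC. Ubiquilin-1, the product of *Ubqln1*, is a shuttle that carries ubiquitinated and mislocalized membrane proteins to the proteasome. The contrast asks which messenger RNAs separate the stimuli in cells that lack it.

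The 6 libraries held 17224952 to 31338757 counted reads, and 14161 genes passed the filter on low counts. In the knockout cells *Ubqln1* was read at 30.1, 34.0 and 34.8 RPKM (reads per kilobase of gene, scaled to library size) with anti-IgM and at 26.6, 29.4 and 30.1 RPKM with LPS. The WT means were 88.4 ± 3.13 RPKM with anti-IgM and 77.8 ± 4.58 RPKM with LPS (SD, n = 3), so reads of the gene were still counted in the knockout, at a level below WT with both stimuli. Counts were per gene, so the exons on which these reads fell were not seen. The B cell markers *Cd79a* and *Cd79b* lay at 288 RPKM or above in all 6 libraries. Of 10 T cell markers, 8 were at or below 0.345 RPKM in every library, among them *Cd3e*, *Cd3d*, *Cd4*, *Thy1* and *Cd8a*, the last at 0.190, 0.312 and 0.263 RPKM with LPS and 0.021, 0.080 and 0.073 RPKM with anti-IgM and called towards LPS (2.15 ± 0.39). *Cd8b1* also lay higher with LPS in every sample (24 reads against 15), while *Cd3d* and *Cd3g* lay higher with anti-IgM (15 and 14 reads against 2 and 1). *Cd8b1*, *Cd3d* and *Cd3g* were too low to be tested. *Lat* did not pass the test (-0.20 ± 0.29). The list summed to 56.6 to 98.1 RPKM with anti-IgM and 16.5 to 22.8 RPKM with LPS, most of it *Lck*, a kinase that some B cells also express, at 96.6, 54.6 and 59.1 RPKM with anti-IgM and 20.9, 15.1 and 15.1 RPKM with LPS. Dendritic cell markers summed to 15.6 to 17.0 RPKM with LPS and 8.13 to 9.17 RPKM with anti-IgM, with 2 of 5 tested higher with LPS (*Zbtb46* 1.11 ± 0.17 and *Flt3* 1.11 ± 0.25) and *Clec10a* at 0 reads. Macrophage and monocyte markers summed to 35.2 to 47.9 RPKM with LPS and 22.1 to 27.5 RPKM with anti-IgM, mostly *Mpeg1* (0.97 ± 0.31, with adjusted p of 0.0585 to 0.0905 without anti-IgM replicate 1 or 2 or LPS replicate 2 or 3), with 2 of 7 tested higher with LPS and 1, *Csf1r*, with anti-IgM (-1.81 ± 0.35), and the defining *C1qa* was at or below 0.203 RPKM. Their part in the results was not tested. The 6 NK cell markers summed to 1.25 to 2.18 RPKM with anti-IgM and 0.924 to 1.14 RPKM with LPS. The 1 of them tested, *Prf1*, was higher with anti-IgM (-0.84 ± 0.30, adjusted p = 0.0431, edgeR). The part of NK cells in the results was not tested. Neutrophil markers summed to at most 1.30 RPKM. In bulk samples, fewer cells of a type and less RNA per cell cannot be told apart.

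The stimuli gave 4437 of 14161 genes with an adjusted p under 0.05 (edgeR quasi-likelihood test, Benjamini-Hochberg), 31.3% of those tested. Of these, 2380 were higher with LPS (16.8% of tested genes) and 2057 were higher with anti-IgM (14.5%). With the thresholds of the study, an absolute log2 fold change over 2 and an adjusted p under 0.001, 172 genes were higher with LPS (1.21%) and 145 with anti-IgM (1.02%). In each of those 317 genes the 3 samples of one group all lay above the 3 of the other. The thresholds chose these genes from the same samples, so this separation is no further support. The median log2 fold change over all tested genes was 0.006. The scaling of the libraries (TMM) sets most genes near 0 beforehand, so levels are relative and total RNA per cell was not measured.

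**Figure D1:**
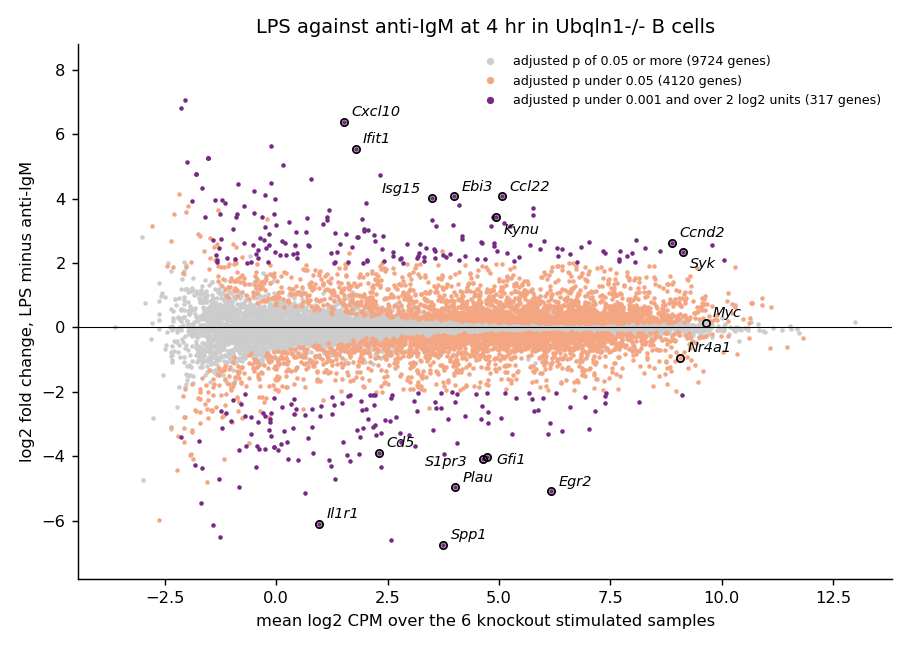
Log2 fold change of LPS over anti-IgM (vertical axis) against mean log2 CPM over the 6 *Ubqln1*-/- stimulated samples (horizontal axis), one point per tested gene, coloured by the test result. *Cxcl10* lies at 6.39 and *Spp1* at -6.74, while *Myc*, among the most abundant genes, lies at 0.15.

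Of the genes whose higher group averaged 10 CPM or more, those furthest towards LPS were led by *Cxcl10*, a chemokine that attracts CXCR3-bearing T cells. It was read at 22.6, 22.9 and 20.9 RPKM with LPS and at 0.282, 0.118 and 0.429 RPKM with anti-IgM. The 3 resting samples had 0.446, 0.295 and 0.580 RPKM and overlapped with the anti-IgM samples, and the LPS samples stood apart from both. The log2 fold change was 6.39 ± 0.37 (SE), an 83.7-fold difference (adjusted p = 1.29e-09, edgeR). It rests on 23 reads in the anti-IgM libraries against 1456 with LPS.

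*Ifit1*, which binds RNA with foreign 5′ ends, followed at 11.3, 8.38 and 5.55 RPKM with LPS and 0.177, 0.131 and 0.242 RPKM with anti-IgM (log2 fold change 5.55 ± 0.42). *Isg15*, a ubiquitin-like modifier made in the interferon response, had 90.1, 56.4 and 39.3 RPKM with LPS and 4.49, 3.56 and 3.26 RPKM with anti-IgM (log2 fold change 4.02 ± 0.28). In both genes replicate 1 was the highest and replicate 3 the lowest LPS sample, and all LPS samples lay above all anti-IgM samples. *Ebi3*, the shared beta chain of IL-27 and IL-35, had 66.3, 62.1 and 41.3 RPKM with LPS against 3.35, 3.93 and 2.61 RPKM with anti-IgM (log2 fold change 4.08 ± 0.26). The T cell attracting chemokine *Ccl22* had 99.7, 80.4 and 55.6 RPKM with LPS against 6.69, 3.89 and 3.23 RPKM (log2 fold change 4.08 ± 0.41).

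Other genes among the largest on this side were *Tnfrsf19* (3.86), the basement membrane gene *Nid1* (3.81), the gene with Entrez number 319269 (3.71), *Dennd3* (3.51), the GTPase gene *Gbp2* (3.43) and *Kynu* (3.42), an enzyme of tryptophan breakdown, all as log2 fold change. *Kynu* had the smallest error of these, with 36.1, 39.8 and 34.9 RPKM with LPS against 3.90, 3.56 and 2.82 RPKM with anti-IgM (SE 0.11). The starting point of these genes differed. *Dennd3* had 34.4, 34.3 and 34.3 RPKM with LPS and 21.4, 17.0 and 21.7 RPKM at rest, against 3.14, 2.58 and 3.38 RPKM with anti-IgM, so that its anti-IgM level was the one farthest from rest, whereas for *Cxcl10* it was the LPS level.

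**Figure D2:**
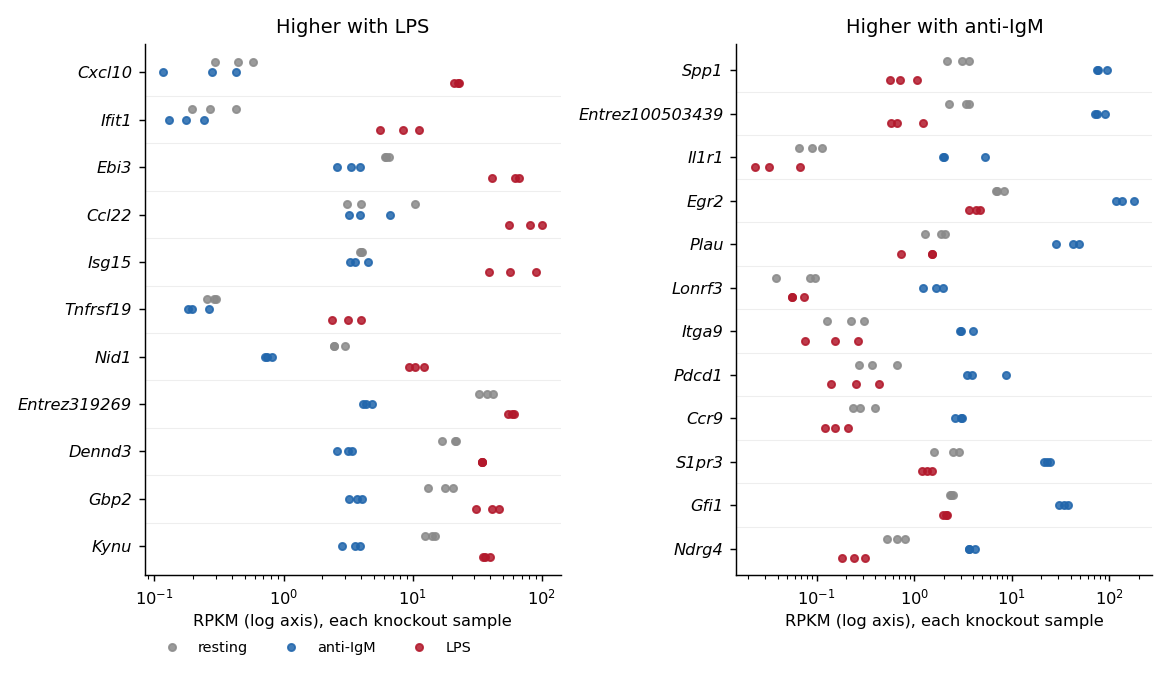
RPKM (log axis) of 23 genes with the largest differences, 11 towards LPS and 12 towards anti-IgM, one point per *Ubqln1*-/- sample, with resting samples in grey, anti-IgM in blue and LPS in red. In all 23 genes the LPS and anti-IgM points are separate, and among those higher with LPS the resting points of *Entrez319269*, *Dennd3*, *Gbp2* and *Kynu* lie nearer to LPS than to anti-IgM on the log axis.

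By the same rule *Spp1* led the other side. It encodes the secreted phosphoprotein osteopontin and was read at 75.8, 75.3 and 93.9 RPKM with anti-IgM and at 0.717, 0.567 and 1.06 RPKM with LPS, with resting samples at 2.14, 3.64 and 3.12 RPKM. The log2 fold change was -6.74 ± 0.22, or 107-fold higher with anti-IgM (adjusted p = 2.43e-12, edgeR). The LPS samples also lay below all resting samples (log2 fold change against rest -1.97 ± 0.26, adjusted p = 7.25e-06, edgeR). The gene with Entrez number 100503439 ran in parallel to *Spp1* in every group (71.1, 74.8 and 89.5 RPKM with anti-IgM, 0.671, 0.584 and 1.24 RPKM with LPS). It had no position in the annotation used here, so whether it overlaps *Spp1* was not seen. The counting gave no strand, so the reads of overlapping genes could not be told apart.

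*Egr2*, a zinc finger factor used as a reporter of antigen receptor signals, was at 176, 116 and 134 RPKM with anti-IgM and at 3.65, 4.25 and 4.70 RPKM with LPS, a 33.7-fold difference (log2 fold change -5.08 ± 0.20, adjusted p = 1.95e-11, edgeR). *Il1r1*, the signalling receptor of interleukin-1, had 5.34, 2.00 and 1.98 RPKM with anti-IgM against 0.024, 0.067 and 0.033 RPKM with LPS. Its log2 fold change of -6.09 ± 0.60 was -5.44 without anti-IgM replicate 1 and -6.73 without LPS replicate 2, and it rests on 14 reads in the LPS libraries. The other 8 were the urokinase gene *Plau* (-4.95), *Lonrf3* (-4.70), the integrin gene *Itga9* (-4.32), the inhibitory receptor gene *Pdcd1* (-4.31), the gut-homing chemokine receptor *Ccr9* (-4.15), the sphingosine 1-phosphate receptor *S1pr3* (-4.09), the repressor *Gfi1* (-4.03) and *Ndrg4* (-3.95), again as log2 fold change. *S1pr3* was tight among replicates, at 21.1, 22.7 and 24.3 RPKM with anti-IgM and 1.34, 1.19 and 1.51 RPKM with LPS, while *Pdcd1* was more variable, at 8.78, 3.50 and 3.88 RPKM against 0.431, 0.253 and 0.142 RPKM.

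To see which functions followed the stimulus, 42 lists of genes were read against the shares of all genes given above (16.8% higher with LPS, 14.5% higher with anti-IgM). Ordered by their median, cytokines, interferon-stimulated genes and interferon-inducible GTPases stood at the LPS end and EGR and NR4A factors at the anti-IgM end. The lists for ribosomes, mitochondria, the proteasome and chaperones lay close to 0.

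**Figure D3:**
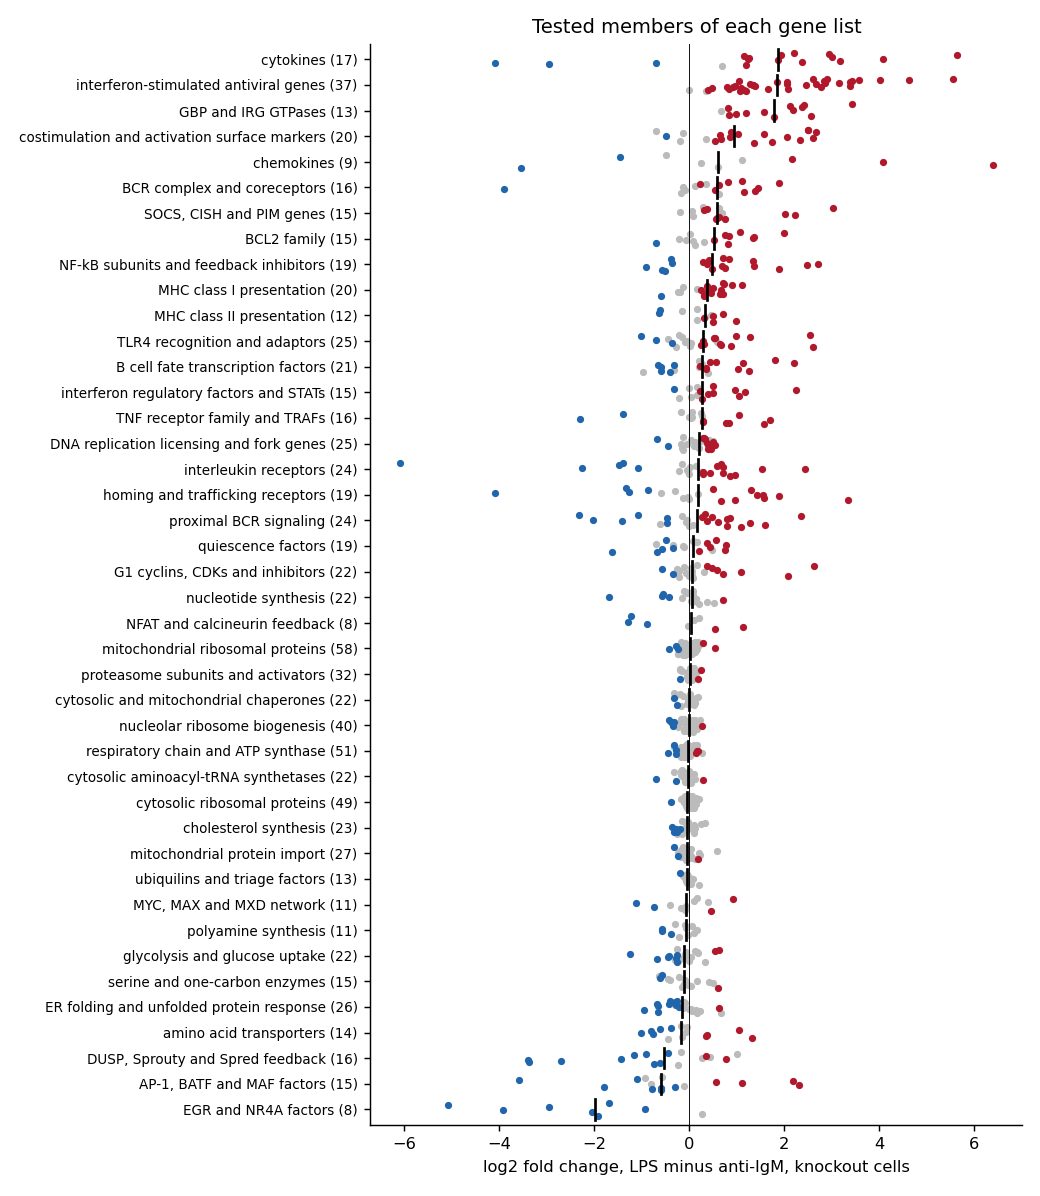
Log2 fold change of LPS over anti-IgM in *Ubqln1*-/- cells for each tested member of 42 gene lists (points), with the number tested in brackets and a black bar at the list's median. Members with an adjusted p under 0.05 are red where higher with LPS and blue where higher with anti-IgM, and the others are grey. List medians run from 1.87 for cytokines to -1.98 for EGR and NR4A factors.

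Interferon-stimulated antiviral genes were the list with the largest share of calls towards LPS. Of 37 tested, 35 were higher with LPS and 0 with anti-IgM, 18 of them past the thresholds of the study, with a median log2 fold change of 1.84. *Bst2* (0.003) and *Ifitm3* (0.35) did not pass the test. *Oasl1*, an inhibitor of interferon regulatory factor translation, had the smallest p of the list, at 59.4, 49.8 and 50.3 RPKM with LPS, 6.36, 5.87 and 5.80 RPKM with anti-IgM and 6.82, 6.95 and 6.23 RPKM at rest (log2 fold change 3.14 ± 0.16). The antiviral radical enzyme *Rsad2* (viperin) was 3.43 ± 0.32 higher and the ADP-ribosyltransferase *Parp14* 1.66 ± 0.16 higher with LPS on the log2 scale. *Ifit3* and *Ifit3b*, at 4.61 and 3.56, are near-identical copies whose reads may be split uncertainly.

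Summed over the list, the level was 722.8, 543.8 and 534.0 RPKM with LPS, 264.3, 265.1 and 250.6 RPKM with anti-IgM and 454.9, 463.5 and 426.0 RPKM at rest. The anti-IgM samples were thus below the resting samples and the LPS samples above them, with no overlap among the 3 groups. Replicate 1 was the highest of the LPS samples, and without it 33 members were higher with LPS.

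Interferon-inducible GTPases of the GBP and IRG families, which attack vacuoles of intracellular pathogens, showed the same order, with 12 of 13 tested members higher with LPS, 0 higher with anti-IgM and a median of 1.79. *Gbp2* was at 40.9, 46.3 and 30.6 RPKM with LPS, 3.67, 4.04 and 3.20 RPKM with anti-IgM and 17.9, 20.7 and 13.1 RPKM at rest. Against rest it was 1.19 ± 0.20 higher with LPS and fell by 2.23 ± 0.22 with anti-IgM on the log2 scale (adjusted p = 6.98e-05 and 1.55e-07, edgeR). These contrasts with rest share the resting samples, and over all genes 60.7% had an adjusted p under 0.05 with LPS and 65.3% with anti-IgM. *Gbp3* (2.42 ± 0.12), *Gbp5* (2.38 ± 0.15) and *Gbp7* (2.19 ± 0.21) were likewise higher with LPS, but the family's members resemble each other and share reads. The transcription factors upstream of these genes moved less, with 9 of 15 interferon regulatory factors and STATs higher with LPS and 1 with anti-IgM (10 and 2 with the replicate number as a block, with which 22.2% of all tested genes were higher with LPS and 19.6% with anti-IgM). *Irf7*, itself induced by interferon, was the furthest, at 20.6, 12.3 and 14.5 RPKM with LPS against 3.15, 3.47 and 3.31 RPKM with anti-IgM (2.25 ± 0.26), followed by *Irf9* (1.17 ± 0.08) and *Irf5* (0.96 ± 0.08). *Irf4*, which drives plasma cell fate, was the 1 member higher with anti-IgM, at 374, 356 and 392 RPKM against 290, 311 and 298 RPKM with LPS (-0.32 ± 0.07).

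Promoter sequence of 5 of the genes most skewed to LPS and of *Egr2* is shown so that the letters upstream of each can be read beside its values. These genes were picked without a fixed rule. They do not show how common the motifs are among genes higher with LPS. Each line gives the 250 bases before a RefSeq start, 5′ to 3′ on the strand of the gene, from RefSeq on GRCm38.p6. For *Egr2* the start taken lies inside the annotated gene, which begins at base 67534469 of the same chromosome. Capitals mark, in the first 5, any match on either strand to the core of the interferon-stimulated response element (GAAANNGAA) or to the 10-base NF-kB consensus, and in *Egr2* any match to the serum response element or to the EGR site (GCGNGGGCG).
*Cxcl10*, chr5:92348890-92349139, minus strand: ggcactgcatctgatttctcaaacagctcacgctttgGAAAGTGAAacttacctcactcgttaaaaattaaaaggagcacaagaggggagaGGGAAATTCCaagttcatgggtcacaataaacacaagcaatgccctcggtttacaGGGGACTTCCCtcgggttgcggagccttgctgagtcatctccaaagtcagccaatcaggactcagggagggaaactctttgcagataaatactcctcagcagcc
*Ifit1*, chr19:34640639-34640888, plus strand: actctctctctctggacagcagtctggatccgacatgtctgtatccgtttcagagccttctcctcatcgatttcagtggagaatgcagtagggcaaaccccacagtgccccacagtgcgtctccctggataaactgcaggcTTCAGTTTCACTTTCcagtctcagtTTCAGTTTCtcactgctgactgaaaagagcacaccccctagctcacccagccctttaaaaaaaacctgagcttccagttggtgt
*Isg15*, chr4:156200819-156201068, minus strand: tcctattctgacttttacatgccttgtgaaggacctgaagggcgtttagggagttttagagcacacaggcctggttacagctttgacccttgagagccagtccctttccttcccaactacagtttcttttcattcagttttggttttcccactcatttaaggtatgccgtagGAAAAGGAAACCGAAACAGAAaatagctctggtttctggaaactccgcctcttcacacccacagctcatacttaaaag
*Ebi3*, chr17:55952373-55952622, plus strand: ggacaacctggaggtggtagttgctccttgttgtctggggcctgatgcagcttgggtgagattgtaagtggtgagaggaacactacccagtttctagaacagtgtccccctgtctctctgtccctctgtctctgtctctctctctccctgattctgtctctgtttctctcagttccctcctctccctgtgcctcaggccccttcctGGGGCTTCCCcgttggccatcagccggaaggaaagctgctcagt
*Il6*, chr5:30012864-30013113, plus strand: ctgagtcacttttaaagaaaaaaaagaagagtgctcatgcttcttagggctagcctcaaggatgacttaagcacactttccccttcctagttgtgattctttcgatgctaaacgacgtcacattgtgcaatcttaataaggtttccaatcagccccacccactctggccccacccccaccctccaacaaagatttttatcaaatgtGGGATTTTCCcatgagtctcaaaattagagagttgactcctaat
*Egr2*, chr10:67537619-67537868, plus strand: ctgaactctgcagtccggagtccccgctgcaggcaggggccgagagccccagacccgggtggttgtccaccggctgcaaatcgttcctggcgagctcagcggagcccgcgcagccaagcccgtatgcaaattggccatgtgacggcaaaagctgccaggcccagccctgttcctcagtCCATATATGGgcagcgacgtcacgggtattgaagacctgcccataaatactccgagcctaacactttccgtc

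*Isg15* held 3 overlapping matches to the response element core, starting 78, 72 and 66 bases before the start, and *Ifit1* held 3, at 109, 103 and 84 bases, of which the first pair overlaps. *Cxcl10* held 1 core at 213 bases and NF-kB matches at 159, 104 and 103 bases, the last pair on overlapping letters. *Ebi3* and *Il6* each held 1 NF-kB match, starting 44 bases before the start in both, and no response element core. *Egr2* held 1 serum response element, 72 bases before the start taken, which lies inside the annotated gene. In the RefSeq windows of 250 bases before to 50 after the start, which were given for 10067 of the 14161 tested genes, the core was present in 8.59% of genes, the NF-kB consensus in 12.2% and the serum response element in 1.55%, and the EGR site was present in 1204 genes. In the list of NF-kB subunits and inhibitors, 16 of 19 genes had a window and 10 of these held the NF-kB consensus. Of the genes past the thresholds of the study, 122 of 172 and 101 of 145 had a window, too few for their shares to be compared.

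Cytokine genes had 13 of 17 tested members higher with LPS and 3 higher with anti-IgM, with a median of 1.87. *Lta*, which encodes lymphotoxin-alpha, was at 23.9, 26.7 and 26.8 RPKM with LPS and 2.77, 2.49 and 3.46 RPKM with anti-IgM (log2 fold change 3.16 ± 0.15), and its partner *Ltb* was at 347, 307 and 352 RPKM against 66.0, 59.7 and 69.4 RPKM (2.37 ± 0.12). For *Ltb* the resting level was 290, 302 and 322 RPKM, so that the anti-IgM samples lay below rest and the LPS samples near it. *Il16* was 1.24 ± 0.08 higher with LPS. Named after their values were seen, *Il6* was at 2.79, 5.32 and 5.50 RPKM against 0.092, 0.058 and 0.126 RPKM (5.63 ± 0.55, on 8 reads with anti-IgM), *Il10* at 13.7, 11.9 and 13.9 RPKM against 3.24, 2.85 and 4.26 RPKM, and *Il12b*, the p40 subunit of IL-12 and IL-23, at 6.97, 5.70 and 4.78 RPKM against 1.04, 0.706 and 0.374 RPKM. The 3 members higher with anti-IgM were *Tgfb1* (-0.71 ± 0.15), the macrophage growth factor *Csf1*, at 18.4, 17.6 and 14.8 RPKM against 2.49, 1.99 and 2.13 RPKM with LPS (-2.95 ± 0.30), and *Ifng*, at 4.58, 3.06 and 3.48 RPKM against 0.099, 0.187 and 0.364 RPKM (-4.08 ± 0.52), the last pair chosen after their values were seen.

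Chemokine genes went both ways. *Cxcl10*, *Ccl22* and *Ccl5* were the 3 of 9 tested that were higher with LPS, and *Xcl1* and *Ccl4* the 2 that were higher with anti-IgM. *Ccl5*, which attracts T cells, was at 29.1, 26.5 and 26.1 RPKM with LPS and 7.38, 4.95 and 6.00 RPKM with anti-IgM, while *Ccl4*, another attractant of leukocytes, was at 31.4, 42.0 and 38.4 RPKM with LPS and 146, 83.6 and 78.5 RPKM with anti-IgM (-1.46 ± 0.23). *Xcl1*, which draws cross-presenting dendritic cells, was at 7.43, 7.67 and 7.45 RPKM with anti-IgM and 1.06, 0.150 and 0.875 RPKM with LPS (-3.55 ± 0.44, or -2.95 without LPS replicate 2), on 19 reads with LPS.

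The feedback genes of NF-kB were mostly higher with LPS. All 19 tested members of the NF-kB list were called, 14 higher with LPS (73.7%) and 5 higher with anti-IgM (26.3%). The furthest towards anti-IgM lay at -0.9 on the log2 scale, and the genes named here all lay towards LPS. *Nfkbiz*, an atypical nuclear inhibitor that is needed for induction of *Il6*, was at 171, 187 and 175 RPKM with LPS, 30.4, 24.8 and 26.7 RPKM with anti-IgM and 13.1, 14.3 and 12.5 RPKM at rest (2.70 ± 0.11). *Bcl3*, a nuclear partner of p50 and p52, was at 96.0, 94.3 and 114 RPKM with LPS and 15.9, 16.8 and 22.5 RPKM with anti-IgM, with rest in between at 51.5, 53.8 and 59.7 RPKM (2.47 ± 0.12). The inhibitors *Nfkbia* (1.34 ± 0.07) and *Tnfaip3* (1.35 ± 0.09) and the RNase gene *Zc3h12a* (1.89 ± 0.10) were also higher with LPS. Among the subunits *Nfkb1* was 0.70 ± 0.10 higher with LPS.

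Genes of TLR recognition and signalling differed less. In the list of TLR4 recognition and adaptor genes, 12 of 25 were higher with LPS and 3 higher with anti-IgM. *Tlr1* (2.55 ± 0.16) and the kinase gene *Ikbke* (2.61 ± 0.12) were the largest towards LPS, and neither belongs to the LPS receptors named above. *Tlr4*, named after its values were seen, was lower with LPS, at 1.82, 1.66 and 1.60 RPKM against 2.95, 3.55 and 3.75 RPKM with anti-IgM and 5.29, 7.28 and 5.38 RPKM at rest (-1.01 ± 0.18, adjusted p = 0.000385, edgeR).

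EGR and NR4A factors, whose genes are switched on within an hour of BCR ligation, were higher with anti-IgM in 7 of 8 tested members, with 0 higher with LPS and a median of -1.98. *Egr3* was at 184, 126 and 114 RPKM with anti-IgM and 20.5, 17.2 and 16.9 RPKM with LPS (-2.96 ± 0.22), and the EGR corepressor *Nab2* at 104, 69.0 and 64.3 RPKM against 23.7, 19.0 and 19.7 RPKM (-1.93 ± 0.20). For both, the LPS samples lay below the resting range of 22.2 to 25.4 RPKM and 27.8 to 31.2 RPKM. *Nr4a1*, the gene of Nur77, was less selective, at 347, 271 and 285 RPKM with anti-IgM, 137, 158 and 177 RPKM with LPS and 37.4, 54.4 and 64.8 RPKM at rest (-0.94 ± 0.20), whereas *Nr4a2* was at 18.1, 13.4 and 15.9 RPKM with anti-IgM and 0.994, 1.02 and 1.08 RPKM with LPS, within its resting range of 0.78 to 1.87 RPKM (-3.93 ± 0.45). *Nab1* was the member not called (0.26, adjusted p = 0.0622, edgeR) and passed with the replicate number as a block (adjusted p = 0.000367).

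In the other immediate early families the members divided. Of 15 AP-1, BATF and MAF genes, 4 were higher with LPS and 7 with anti-IgM. *Jun* was at 26.6, 30.9 and 30.4 RPKM with LPS and 7.87, 5.82 and 5.77 RPKM with anti-IgM (2.17 ± 0.16), while *Fosl2* was at 0.740, 0.795 and 0.908 RPKM with LPS and 8.32, 10.9 and 9.89 RPKM with anti-IgM (-3.58 ± 0.26). *Batf*, which cooperates with IRF4 and IRF8, was higher with LPS (2.31 ± 0.26), and *Maff* (-1.80 ± 0.17) and *Bach1* (-0.78 ± 0.08) were higher with anti-IgM. Feedback inhibitors of the RAS and ERK pathway had 9 of 16 members higher with anti-IgM and 2 higher with LPS. *Spry1* was at 3.64, 5.24 and 5.24 RPKM with anti-IgM and 0.382, 0.453 and 0.485 RPKM with LPS (-3.41 ± 0.30), and *Spry2* (-2.70 ± 0.40) and *Dusp14* (-1.44 ± 0.17) followed, while *Dusp16* went the other way (0.77 ± 0.08).

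Of 8 genes of the NFAT pathway, 3 were higher with anti-IgM and 2 with LPS. *Nfatc1*, whose product induces its own gene, was at 95.5, 91.3 and 98.0 RPKM with anti-IgM, 41.6, 39.6 and 39.7 RPKM with LPS and 49.4, 48.1 and 46.4 RPKM at rest (-1.24 ± 0.06), and the calcineurin inhibitor *Rcan1* was -1.30 ± 0.13. Of the catalytic subunits of calcineurin, the pair on the list went the other way, with *Ppp3ca* at 63.2, 65.0 and 71.0 RPKM with LPS and 28.7, 30.3 and 31.7 RPKM with anti-IgM, from 84.8, 82.0 and 84.2 RPKM at rest (1.13 ± 0.07), and *Ppp3cc* 0.54 ± 0.08 higher with LPS.

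Genes of the BCR and its coreceptors were lower with anti-IgM than with LPS in 9 of 16 tested members, with 1 member higher with anti-IgM. *Cd79a*, a signalling chain of the BCR, was at 725.3, 609.0 and 760.6 RPKM with LPS, 352.4, 288.0 and 325.6 RPKM with anti-IgM and 1062, 945.8 and 1064 RPKM at rest, with no overlap among the groups. The log2 fold change was 1.12 ± 0.12 (adjusted p = 2.29e-06, edgeR), and against rest *Cd79a* fell by 1.67 ± 0.13 with anti-IgM and by 0.55 ± 0.12 with LPS. Its partner *Cd79b* (0.81 ± 0.11) and the Fc receptor-like gene *Fcrl1* (1.38 ± 0.11) were also higher with LPS. *Cd5*, which dampens BCR signals and marks B1a cells, was the exception, at 10.7, 7.55 and 8.67 RPKM with anti-IgM, 0.488, 0.618 and 0.690 RPKM with LPS and 0.733, 0.670 and 0.757 RPKM at rest (-3.89 ± 0.27).

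Proximal signalling genes divided in the same way by member, 12 of 24 higher with LPS and 6 with anti-IgM. *Syk* was at 240, 227 and 246 RPKM with LPS and 239, 237 and 243 RPKM at rest, which overlap, and at 46.3, 45.7 and 48.2 RPKM with anti-IgM, a 5.09-fold difference between the stimuli (2.35 ± 0.09, adjusted p = 1.95e-11, edgeR). *Bank1*, an adaptor that dampens CD40 signals, was 1.59 ± 0.10 higher with LPS and *Vav2* 0.79 ± 0.07. *Pik3ap1*, the adaptor BCAP, was at 214, 164 and 196 RPKM with anti-IgM and 74.4, 65.5 and 73.7 RPKM with LPS (-1.43 ± 0.10), and the SRC-family kinase *Blk* was -1.08 ± 0.09. *Fyn*, another SRC-family kinase, named after its values were seen, was at 150, 168 and 206 RPKM with anti-IgM and 25.4, 35.2 and 44.8 RPKM with LPS, with rest at 27.9, 40.6 and 46.6 RPKM (-2.32 ± 0.30).

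Surface proteins that let B cells engage T cells were higher with LPS in 15 of 20 members, with 1 higher with anti-IgM (16 and 3 with the block) and a median of 0.95. *Cd40* was at 155, 152 and 158 RPKM with LPS, 21.7, 27.8 and 32.6 RPKM with anti-IgM and 46.4, 51.2 and 58.0 RPKM at rest (2.51 ± 0.16), and the adhesion ligand *Icam1* at 178, 173 and 151 RPKM with LPS against 44.6, 35.5 and 41.1 RPKM (2.05 ± 0.10). *Icosl*, the ligand of ICOS, was at 133, 103 and 125 RPKM with LPS and 130, 124 and 142 RPKM at rest, but at 19.9, 16.0 and 21.4 RPKM with anti-IgM (2.66 ± 0.16). *Fas* was 2.32 ± 0.17 higher with LPS. *Cd83*, the most abundant of the list with LPS, was high with both stimuli, at 682, 740 and 788 RPKM with LPS and 468, 447 and 502 RPKM with anti-IgM (0.64 ± 0.16). *Cd86*, at 34.7, 56.4 and 66.8 RPKM with LPS and 63.3, 87.5 and 108 RPKM with anti-IgM, overlapped between the stimuli and was not called (-0.71 ± 0.40, adjusted p = 0.198, edgeR), but was called with the replicate number as a block (adjusted p = 3.29e-06). It was chosen after its values were seen.

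In the TNF receptor family and TRAFs 7 of 16 were higher with LPS and 2 with anti-IgM, with the inhibitor of apoptosis genes *Birc3* (1.56 ± 0.08) and *Birc2* (0.83 ± 0.06) and the NF-kB target *Traf1* (1.69 ± 0.17) higher with LPS and *Cd27* (-2.30 ± 0.25) higher with anti-IgM. Among 24 interleukin receptor genes, 11 were higher with LPS and 5 with anti-IgM. *Il10ra* was at 52.5, 48.4 and 70.6 RPKM with LPS, 55.4, 58.2 and 61.6 RPKM at rest and 10.8, 9.73 and 11.4 RPKM with anti-IgM (2.43 ± 0.17). Besides *Il1r1*, the decoy receptor *Il1r2* (-1.40 ± 0.12) and the shared signalling chain *Il6st* (-1.08 ± 0.08) were higher with anti-IgM. In the SOCS, CISH and PIM list 9 of 15 were higher with LPS and 0 with anti-IgM (10 and 1 with the block), led by the survival kinases *Pim1*, at 284, 325 and 309 RPKM against 64.5, 78.7 and 83.2 RPKM (2.02 ± 0.13), and *Pim2* (2.23 ± 0.31), and by the cytokine signal inhibitor *Socs3* (3.02 ± 0.38).

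Among homing receptors, the integrin genes *Itgal* (1.89 ± 0.08) and *Itga4* (1.54 ± 0.12) were higher with LPS, and 9 of 19 members in all, against 4 higher with anti-IgM, which include *S1pr3*. MHC class I genes had 14 of 20 higher with LPS and 1 with anti-IgM (15 and 3 with the block), by small steps, such as *H2-D1* (0.73 ± 0.06) and *H2-K1* (0.70 ± 0.06), whose reads may be shared among near-identical H2 genes. MHC class II genes had 5 of 12 higher with LPS and 2 with anti-IgM (9 and 3 with the block). Here *H2-Aa*, the alpha chain of I-A, was the abundant exception, at 3006, 3193 and 3689 RPKM with anti-IgM and 2020, 1943 and 2472 RPKM with LPS (-0.62 ± 0.16), while the lysosomal protease *Ctss* was 0.98 ± 0.08 higher with LPS.

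Transcription factors of B cell identity and fate went both ways, with 10 of 21 higher with LPS and 5 with anti-IgM (10 and 7 with the block). *Pax5* was at 177, 160 and 157 RPKM with LPS, 168, 146 and 143 RPKM at rest and 47.4, 44.9 and 48.1 RPKM with anti-IgM (1.81 ± 0.12). *Pou2f2*, the gene of OCT2, was at 148, 149 and 144 RPKM with LPS and 28.3, 34.1 and 33.1 RPKM with anti-IgM (2.21 ± 0.10), and *Tcf3* (1.26 ± 0.07) and *Bcl6* (1.12 ± 0.09) followed. *Irf4*, given above, and *Xbp1* (-0.66 ± 0.11), both of plasma cell fate, were among the 5 higher with anti-IgM. Of 3 plasma cell markers tested, *Sdc1* was higher with anti-IgM (-1.87 ± 0.21). *Jchain* (-0.39 ± 0.37) and the plasma cell regulator *Prdm1*, which lay towards LPS (0.27 ± 0.16), were not called.

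The study is concerned with cell cycle entry, and the genes of the first gap phase were set beside those of growth. *Ccnd2*, the D cyclin of activated B cells, was at 205, 227 and 177 RPKM with LPS, 30.6, 34.5 and 33.4 RPKM with anti-IgM and 13.0, 15.2 and 11.5 RPKM at rest. All anti-IgM samples lay above rest and all LPS samples above anti-IgM. Between the stimuli the difference was 6.17-fold (log2 fold change 2.63 ± 0.19, adjusted p = 1.48e-08, edgeR), and against rest it was 3.94 ± 0.20 with LPS and 1.31 ± 0.18 with anti-IgM on the log2 scale. *Ccnd3* was lower with both stimuli than at rest, at 19.4, 19.2 and 19.4 RPKM with LPS and 14.9, 14.6 and 15.0 RPKM with anti-IgM from 28.8, 25.8 and 27.3 RPKM (0.38 ± 0.06 between the stimuli, adjusted p = 9.28e-05, edgeR). Of 22 G1 genes, 7 were higher with LPS and 2 with anti-IgM, among them *E2f2* (2.07 ± 0.23) and the pocket protein gene *Rbl1* (0.71 ± 0.09) with LPS and *Cdk4*, the kinase partner of the D cyclins, with anti-IgM, at 227, 252 and 234 RPKM against 147, 181 and 151 RPKM (-0.57 ± 0.12).

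*Myc* did not separate the stimuli. It was at 355, 401 and 300 RPKM with LPS and 313, 329 and 308 RPKM with anti-IgM, and these ranges overlap, while the resting samples were at 29.5, 44.2 and 29.4 RPKM. The log2 fold change of LPS over anti-IgM was 0.15 ± 0.18, with a 95% interval of -0.20 to 0.50 and an adjusted p of 0.575 (edgeR). In the MYC, MAX and MXD network 2 of 11 members were higher with LPS and 2 with anti-IgM (3 and 4 with the block), of which the repressor gene *Mnt* was the most precise (-0.73 ± 0.06).

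**Figure D4:**
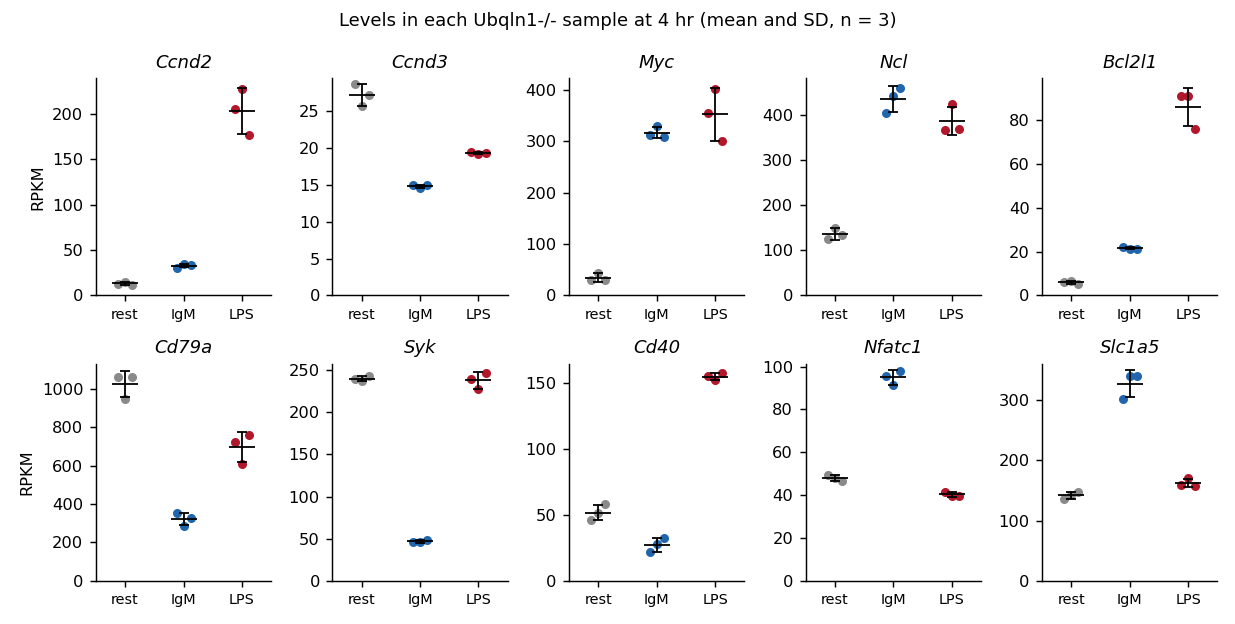
RPKM of 10 genes in each *Ubqln1*-/- sample (points) at rest, with anti-IgM and with LPS, with the mean and SD over 3 samples in black. *Ccnd2* rises from about 13 to 33 and 203 RPKM, *Myc* and *Ncl* are raised to overlapping levels by both stimuli, and *Syk* is near rest with LPS and far below it with anti-IgM.

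The anti-apoptotic gene *Bcl2l1* followed the order of *Ccnd2*, at 90.9, 90.7 and 76.0 RPKM with LPS, 22.1, 21.3 and 21.1 RPKM with anti-IgM and 6.03, 6.55 and 5.2 RPKM at rest (2.00 ± 0.16). In the BCL2 family 8 of 15 were higher with LPS and 1 with anti-IgM (8 and 2 with the block), pro-survival *Bcl2* (1.07 ± 0.10) and *Mcl1* (0.74 ± 0.10) as well as pro-death *Bid* (0.52 ± 0.06). Quiescence factors were 6 higher with LPS and 5 with anti-IgM of 19. *Foxo1* was at 83.7, 79.0 and 83.4 RPKM at rest, 46.5, 42.3 and 50.1 RPKM with LPS and 31.6, 29.7 and 33.3 RPKM with anti-IgM (0.55 ± 0.09), and the PI3-kinase inhibitor *Pik3ip1* was lowest with LPS, at 7.26, 5.34 and 8.00 RPKM against 20.5, 20.1 and 23.1 RPKM with anti-IgM (-1.64 ± 0.19).

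The lists of the growth programme had few members called between the stimuli. For ribosome biogenesis, ribosomal proteins and aminoacyl-tRNA synthetases the shares were below those over all genes, except that with the block the share of synthetases higher with anti-IgM was above. In nucleolar ribosome biogenesis, where *Ncl* was at 367, 424 and 370 RPKM with LPS and 406, 442 and 462 RPKM with anti-IgM (-0.17 ± 0.12), 1 of 40 members was higher with LPS and 4 with anti-IgM (4 and 6 with the block), and all 40 lay within 0.5 of 0 on the log2 scale. Cytosolic ribosomal proteins had 0 and 1 of 49 (0 and 2 with the block), with *Rpl35* the member called (-0.39 ± 0.12; adjusted p from 0.0664 to 0.0759 without anti-IgM replicate 1 or LPS replicate 1 or 2), and their summed level was 11020 to 11600 RPKM with LPS and 11630 to 11890 RPKM with anti-IgM. Cytosolic aminoacyl-tRNA synthetases had 1 and 2 of 22 (1 and 6 with the block), of which *Sars*, the seryl-tRNA synthetase gene, was the largest, at 126, 144 and 139 RPKM with anti-IgM and 74.4, 97.9 and 79.9 RPKM with LPS (-0.70 ± 0.15).

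The genes of mitochondria and of protein degradation, which bear on the role of ubiquilin-1, gave a like picture. Mitochondrial ribosomal proteins had 2 of 58 higher with LPS and 3 with anti-IgM (6 and 6 with the block), import machinery 1 and 2 of 27 (2 and 5), respiratory chain and ATP synthase subunits 3 and 4 of 51 (4 and 6), and proteasome subunits and activators 2 and 1 of 32 (3 and 2). Their medians were 0.01, -0.05, -0.02 and 0.01. Leaving out any 1 sample gave 1 to 2 mitochondrial ribosomal proteins, 1 to 2 import genes, 2 to 4 respiratory genes and 0 to 1 proteasome genes higher with anti-IgM, and 2, 0 to 2, 0 to 2 and 1 to 2 higher with LPS. The largest differences in these lists included *Mrpl45* towards LPS, at 27.0, 27.9 and 24.9 RPKM against 18.4, 18.2 and 17.9 RPKM (0.55 ± 0.06), and *Uqcrq*, a subunit of complex III, towards anti-IgM, at 172, 189 and 179 RPKM against 120, 143 and 129 RPKM (-0.46 ± 0.12). Of 13 ubiquilins and triage factors, 1 was called (2 with the block), which is *Ubqln1* itself, measured through its residual reads (-0.20 ± 0.07, adjusted p = 0.0435, edgeR). That call was lost without anti-IgM replicate 2 or 3 or LPS replicate 1 or 2, with adjusted p of 0.13, 0.124, 0.188 and 0.0658. *Ubqln2*, at 16.6, 16.7 and 17.8 RPKM with LPS and 17.3, 18.0 and 17.8 RPKM with anti-IgM, had an interval of -0.14 to 0.04 on the log2 scale, and *Ubqln4* one of -0.30 to 0.12. Chaperones had 0 and 2 of 22 (1 and 4 with the block), with *Hsp90ab1* at 1240, 1395 and 1246 RPKM with LPS and 1595, 1632 and 1601 RPKM with anti-IgM (-0.32 ± 0.08).

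Genes of nutrient uptake went both ways. The glutamine transporter *Slc1a5* was at 301, 340 and 340 RPKM with anti-IgM, 160, 171 and 158 RPKM with LPS and 136, 142 and 148 RPKM at rest (-1.01 ± 0.09), and *Slc3a2*, the heavy chain partner of several transporters, was -0.80 ± 0.15. *Slc43a2*, by contrast, was higher with LPS (1.32 ± 0.19), and of 14 amino acid transporters 4 were higher with LPS (2 without anti-IgM replicate 2 or LPS replicate 1 or 3) and 5 with anti-IgM. In glycolysis 2 of 22 were higher with LPS and 7 with anti-IgM (5 and 9 with the block), with the phosphofructokinase gene *Pfkp* at 73.6, 76.8 and 65.7 RPKM with anti-IgM and 27.5, 34.7 and 29.0 RPKM with LPS (-1.24 ± 0.12) and *Ldha* at -0.67 ± 0.10. The 7 became 4 without anti-IgM replicate 2 and 3 without anti-IgM replicate 3 or LPS replicate 1 or 3.

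In the endoplasmic reticulum (ER) and unfolded protein response list 1 of 26 was higher with LPS and 10 with anti-IgM (4 and 13 with the block). The disulphide isomerase *P4hb* was at 210, 218 and 210 RPKM with anti-IgM and 127, 137 and 131 RPKM with LPS (-0.69 ± 0.07), *Ddit3*, the gene of CHOP, was -0.95 ± 0.12 and *Xbp1* -0.66 ± 0.11, while *Herpud1*, of ER-associated degradation, was 0.63 ± 0.05 and thus higher with LPS. The 10 became 5 without anti-IgM replicate 1 and 6 without LPS replicate 3. Polyamine, nucleotide, one-carbon and cholesterol synthesis had 0 and 3 of 11 (0 and 5 with the block), 1 and 4 of 22 (2 and 4), 1 and 2 of 15 (1 and 6) and 0 and 5 of 23 (2 and 6) members higher with LPS and with anti-IgM. DNA replication genes had 9 of 25 higher with LPS and 2 with anti-IgM, with *Mcm5* (0.33 ± 0.07) and *Mcm3* (0.31 ± 0.07) higher with LPS but *Mcm6* (-0.68 ± 0.10) and *Pcna* (-0.45 ± 0.08) higher with anti-IgM, and the 9 became 5 without anti-IgM replicate 1 or LPS replicate 2.

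The same contrast in WT cells compares WT libraries, but its filter, scaling and estimate of spread came from all 18 samples, knockout included. It is therefore not fully independent of the knockout result. It gave 198 genes higher with LPS past the thresholds of the study (1.4% of those tested) and 157 higher with anti-IgM (1.11%). Over the 399 genes past the thresholds in either genotype, all 399 had the same direction in both, the slope of the knockout log2 fold change on that in WT was 0.937, and Pearson's r across genes was 0.974 (genes are not independent replicates). In 83.5% of them the genotypes differed by less than 1 on the log2 scale. These genes were selected for large differences. Over all 14161 tested genes, 12107 had the same direction, the slope was 0.901 and 98.4% differed by less than 1. *Cxcl10* was 6.89 in WT and 6.39 in the knockout, *Egr2* -5.05 and -5.08, *Ccnd2* 2.77 and 2.63, *Syk* 2.44 and 2.35, and *Myc* -0.08 and 0.15.

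A test of the genotype difference of the contrast called 0 genes (0.0%) at an adjusted p under 0.05 with edgeR, 0 with limma and voom, and 2 with DESeq2. With edgeR 230 genes (1.62%) had an unadjusted p under 0.05. That share is smaller than the 0.05 that evenly spread p-values would give, so the 230 are no excess. It also means that the test was cautious, and 0 calls do not show that the genotypes are equal. The genes with the smallest p were all on the side of a smaller LPS excess in the knockout. *Slfn8*, a Schlafen gene that interferon induces, was 2.90 ± 0.17 in WT and 1.77 ± 0.17 in the knockout (difference -1.13 ± 0.24, adjusted p = 1, edgeR), with mean levels of 19.6 ± 4.93 RPKM in WT and 12.4 ± 1.60 RPKM in the knockout with LPS (SD, n = 3). *Ifi214* (difference -1.10 ± 0.23), the gene with Entrez number 100862514 (-1.37 ± 0.30), *Hsh2d* (-0.75 ± 0.17) and *Tor3a* (-0.83 ± 0.20) had an adjusted p of 1 as well. Entrez gene 100862514 had mean levels close to those of *Slfn8* with LPS, at 20.0 RPKM in WT and 11.9 RPKM in the knockout. The pair may share reads and may not be separate observations. Without WT LPS replicate 2 the count of called genes was 8, and without WT anti-IgM replicate 3 it was 1.

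Across the interferon-stimulated list the median log2 fold change was 2.60 in WT and 1.84 in the knockout, and the median of the genotype difference was -0.78, with 0 of 37 members called. Its summed level with LPS was 1000, 669.6 and 811.1 RPKM in WT and 722.8, 543.8 and 534.0 RPKM in the knockout, which overlap, and WT was above the knockout in each of the 3 same-numbered pairs. With anti-IgM it was 239.8, 215.2 and 246.6 RPKM in WT, just below the 250.6 to 265.1 RPKM of the knockout. In the EGR and NR4A list the medians were -2.09 in WT and -1.98 in the knockout, and in nucleolar ribosome biogenesis -0.04 and -0.01.

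**Figure D5:**
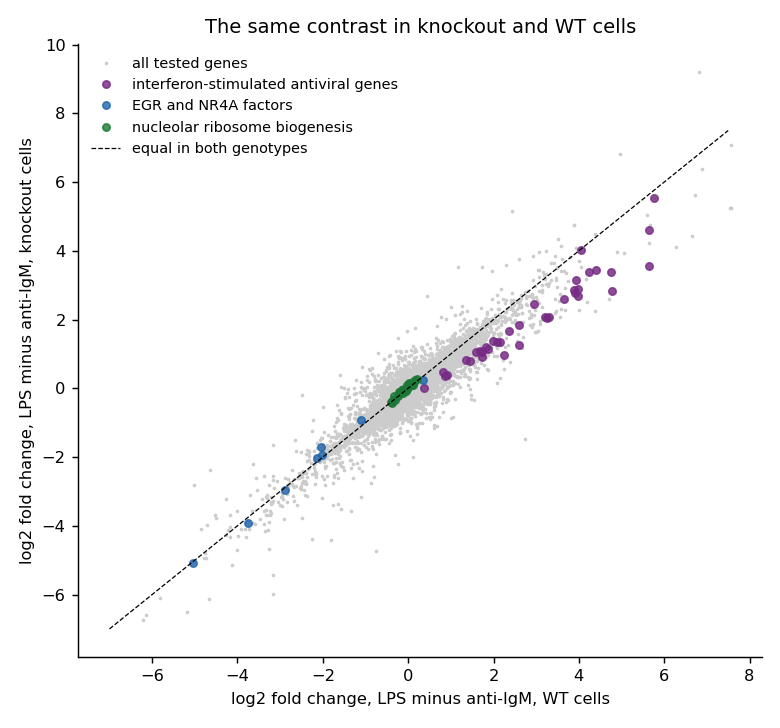
Log2 fold change of LPS over anti-IgM in *Ubqln1*-/- cells (vertical axis) against that in WT cells (horizontal axis), one point per tested gene, with 3 gene lists coloured and the line of equal values dashed. EGR and NR4A factors lie along the line, and interferon-stimulated genes lie mostly below it, with medians of 1.84 in the knockout and 2.60 in WT.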

How the data were processed

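The authors mapped single-end reads to GRCm38 with GSNAP and deposited raw counts per Entrez gene for each of the 18 samples, without normalization (TruSeq v2 libraries, not stranded). The counting program is not given in the sources used here. The authors' RPKM column was not used. Here RPKM was recomputed from the count, the deposited gene width and the TMM-scaled library size. Symbols came from RefSeq and GENCODE, which named 25050 of 28096 genes.

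edgeR 4.0.16 (R 4.3.3; TMM, filterByExpr, quasi-likelihood test) was fitted to all 18 samples with 1 term per group. Errors of log2 fold changes are SE, the fold change over the square root of F. Adjusted p is Benjamini-Hochberg over 14161 genes. The common biological coefficient of variation was 10.14%, and intervals of 95% are 1.96 SE to each side. limma 3.58.1 with voom (the tool of the study), DESeq2 1.42.0, other filters and factors, a replicate block and left-out samples were alternatives. The fit was tested on simulated counts. The study describes the replicates as 3 independent experiments, and the labels do not say which mice they came from, so p-values measure the spread between these samples.

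Same-numbered LPS and anti-IgM samples of the knockout deviated together from their group means (r = 0.30, 0.30 and 0.33), so the numbers pair the samples. The main fit, like the single-term models of the study, leaves this pairing out. Genes such as *Cd86* were therefore not called there but were called with the replicate block. Replicate 1 of each group has an unnumbered label and took the number left over. Genes and lists were chosen with earlier results of these data known. Named are the 12 largest differences in each direction past the thresholds of the study with at least 10 CPM and no overlap, up to 4 members of each list with the smallest p and up to 4 with the highest level, *Ubqln1*, *Ubqln2*, *Ubqln4*, *Myc*, *Ccnd2* and *Ccnd3*, and 5 genes with the smallest p between genotypes. *Il6*, *Il10*, *Il12b*, *Csf1*, *Ifng*, *Fyn*, *Tlr4*, *Cd86*, *Nab1*, *Bst2*, *Ifitm3*, *Ifit3*, *Ifit3b*, *Parp14*, *Tnfaip3*, *Vav2*, *Xbp1*, *Sdc1*, *Jchain*, *Prdm1* and the markers of other cell types were chosen after their values were seen. *Ighm*, *Ighd* and 5 other genes of the lists and markers could not be matched. Figures were drawn with matplotlib 3.10.9. A few genes that the rule names are not reported here.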

Additional observations from a re-analysis of the deposited data

How the results depend on the processing

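Of the named genes, none reversed under any alternative run. The total of 4437 called genes was 1236 with an absolute log2 fold change over 1 (664 higher with LPS and 572 with anti-IgM) and 317 with the thresholds of the study, by construction. With at least 10 counts in every sample, which removes genes of low level, 88 genes were past those thresholds towards LPS and 82 towards anti-IgM. Leaving out single samples gave 3590 to 3833 called genes in all, 1928 to 2114 higher with LPS and 1650 to 1798 with anti-IgM, and 138 to 159 and 120 to 145 past the thresholds. With the replicate block 3149 genes were higher with LPS and 2775 with anti-IgM, and 190 and 172 past the thresholds. Among genes with values in the text, the block changed no call other than those of *Cd86* and *Nab1*. Counts of list members moved too. Leaving out 1 sample gave 5 to 12 ER genes, 3 to 5 glycolysis genes, 1 to 4 aminoacyl-tRNA synthetases, 1 to 4 one-carbon enzymes, 3 to 5 cholesterol genes and 2 to 4 ribosome biogenesis genes higher with anti-IgM, and 5 to 10 replication genes and 33 to 35 interferon-stimulated genes higher with LPS. The genotype difference had 0 called genes in all alternatives except DESeq2 (2), without WT_LPS replicate 2 (8) and without WT_IgM replicate 3 (1), so leaving out 1 sample gave 0 to 8. The cause was not tested. The slope of the knockout on the WT contrast was 0.901 over all tested genes. Shares of promoters over sets of called genes were not compared, since fewer than 80% of their members had a window. The same holds for all tested genes, so the shares given for these describe only the genes with a window. Genes with few reads in one group, such as *Il6*, *Il1r1* and *Xcl1*, are the ones whose fold depth limits.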
